A study of Mus musculus with 2 samples.

Results

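The genes described here are 6 mouse genes widely used to read the activation state of macrophages, namely Nos2, Chil3, Mrc1, Retnla, F13a1 and Cd163. They were taken by symbol, 6 of the 32285 genes counted, and all 6 were present in both libraries. Tumors had grown in the omentum of adult female C57BL/6J mice for 10 days after intraperitoneal grafting of KPCA.FSTKO or KPCA.FSTKO_hFSTL3 cells. KPCA is a mouse line of high-grade serous ovarian cancer that carries mutant Trp53 and overexpresses Ccne1 and Akt2. The deletion of Fst, which encodes follistatin, was made in a KPCA clone and is shared by both lines. The KPCA.FSTKO_hFSTL3 line is a single stable clone, made from KPCA.FSTKO cells with a plasmid for human FSTL3 and geneticin selection. The clone and the transgene therefore cannot be told apart. From each genotype 4 tumors were pooled into 1 library of single cells read from the 3' end of transcripts, in which unique molecular identifiers (UMIs) count captured molecules, so there was no replicate and no test was made. Intervals are 95% intervals that cover counting error only (exact Poisson for levels, conditional binomial for ratios, Clopper-Pearson for shares). The KPCA.FSTKO library held 168214773 UMIs in 7582 barcodes, of which 6777 passed the filters on mitochondrial share (under 20%) and on the number of genes at a median of 17253 UMIs, and the KPCA.FSTKO_hFSTL3 library held 80391504 UMIs in 4244 barcodes, of which 4041 passed at a median of 15071 UMIs. The libraries shared 12 barcodes, 10 of them kept.

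Macrophages change their gene expression with the signals around them. Interferon gamma and bacterial products induce Nos2, the inducible nitric oxide synthase that turns arginine into nitric oxide and citrulline, which is the textbook sign of classical activation. Interleukin 4 and interleukin 13 act through STAT6 to induce the secreted proteins Chil3 (Ym1, a chitinase-like lectin) and Retnla (Fizz1, a resistin-like protein), which are signs of alternative activation in the mouse. Mrc1 (CD206, the mannose receptor) and Cd163 (the scavenger receptor for haptoglobin bound to haemoglobin) are endocytic receptors, and F13a1 (the A subunit of coagulation factor XIII) is a transglutaminase made by monocytes and tissue macrophages. Resident macrophages of the omentum and other serous tissues are known for Cd163 and Lyve1.

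In the mouse build GRCm38 (GENCODE vM21), Mrc1 lies at chr2:14229392-14332057 on the plus strand, Chil3 at chr3:106147554-106167564 on the minus strand and Cd163 at chr6:124304656-124330527 on the plus strand. Nos2 lies at chr11:78920787-78960254 on the plus strand, F13a1 at chr13:36867178-37050244 on the minus strand and Retnla at chr16:48842551-48844461 on the plus strand. All 6 are protein-coding. RefSeq promoters of 300 bases (GRCm38.p6, 250 bases before the start site and 50 after it) were at hand for 5 of the 6 genes, in 6 entries, of which F13a1 had 2. They were searched on both strands for TTCNNNNGAA, the spaced palindrome that STAT6 prefers, and for TTCNNNGAA, the shorter palindrome that other STAT factors bind. A match was found in Retnla and in Chil3, the genes with the largest differences between the libraries in opposite directions among the 5, and their promoters are printed from 5' to 3' on the strand of the gene, with the match in capitals. The Retnla promoter, chr16:48842359-48842658, holds TTCNNNNGAA once, from 145 bases before the start, as do 6.95% of 32851 promoters. The Chil3 promoter, chr3:106167515-106167814, holds TTCNNNGAA once, from 172 bases before the start, as do 8.30% of the 32851. The promoters of Mrc1, Cd163 and F13a1 hold neither set of letters in this window.
Retnla: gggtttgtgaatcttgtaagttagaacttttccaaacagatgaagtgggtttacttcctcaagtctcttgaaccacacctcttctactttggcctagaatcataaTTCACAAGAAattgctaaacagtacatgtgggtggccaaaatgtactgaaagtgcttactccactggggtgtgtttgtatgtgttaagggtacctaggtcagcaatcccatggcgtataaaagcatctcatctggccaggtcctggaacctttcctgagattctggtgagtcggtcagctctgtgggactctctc
Chil3: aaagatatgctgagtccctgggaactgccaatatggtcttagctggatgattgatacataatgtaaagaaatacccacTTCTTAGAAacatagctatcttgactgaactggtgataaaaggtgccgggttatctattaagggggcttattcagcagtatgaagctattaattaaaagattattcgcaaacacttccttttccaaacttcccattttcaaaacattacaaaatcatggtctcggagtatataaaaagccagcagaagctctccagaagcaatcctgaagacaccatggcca

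Macrophages were first taken by a gate of at least 5 UMIs of C1qa, C1qb and C1qc together, the chains of complement C1q that tissue macrophages make, and at least 1 UMI of Ptprc, the leukocyte marker CD45. The gate held 827 cells of KPCA.FSTKO (12.2% of kept cells) and 1347 cells of KPCA.FSTKO_hFSTL3 (33.3%). The 2 sets of cells were not alike. Of the 827 gated cells of KPCA.FSTKO, 762 (92.1%) lay in clusters 3 and 21, the clusters in which all 10 macrophage markers (among them C1qa, Adgre1, Csf1r, Cd68 and Mertk) were raised. Of the 1347 gated cells of KPCA.FSTKO_hFSTL3, 134 lay there and 1205 (89.5%) lay in clusters called mixed, which had at least 2 pancreatic acinar genes among their top 10. The summed level of the 10 macrophage markers was 9109 CPM (UMIs of a gene or list per 1000000 UMIs of the class of cells) in gated cells of KPCA.FSTKO and 2282 CPM in those of KPCA.FSTKO_hFSTL3, while the 23 acinar genes summed to 91.1 and 9165 CPM, led in the latter by the trypsinogen gene Prss2 at 1399 CPM. Keratin and other cancer markers summed to 855 and 3253 CPM, fibroblast markers to 416 and 1679 CPM and erythroid genes to 249 and 3365 CPM. The median mitochondrial share of gated cells was 3.99% and 11.3%. The part these other transcripts take in the values of the 6 genes was not tested. Values over all gated cells of KPCA.FSTKO_hFSTL3 are mostly those of mixed clusters, and results between the libraries are therefore given first for gated cells of cluster 3.

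In gated cells of cluster 3 all 10 macrophage markers were found in both libraries. They summed to 10236 CPM in 726 cells of KPCA.FSTKO (median 13262.5 UMIs) and to 10183 CPM in 117 cells of KPCA.FSTKO_hFSTL3 (median 18656 UMIs), led by C1qa at 3307 and 3220 CPM, a gene of the gate. The 7 of them that the gate did not use summed to 2422 and 2463 CPM, among which Csf1r, the receptor for colony stimulating factor 1, was at 326 and 492 CPM, 1.51-fold higher in KPCA.FSTKO_hFSTL3 (1.41 to 1.62). The 7 monocyte markers summed to 358 and 476 CPM, with Ccr2, the receptor that brings monocytes from blood, at 180 and 341 CPM. The 9 neutrophil markers summed to 176 and 134 CPM, with Ly6g at 0 in both libraries and S100a9, Cxcr2 and Retnlg at 0 as well in KPCA.FSTKO_hFSTL3. Acinar genes were still at 1324 CPM in KPCA.FSTKO_hFSTL3 against 99.7 CPM in KPCA.FSTKO, erythroid genes went the other way at 49.5 against 313 CPM, and their part in the values was not tested. Cluster 21 was small, with 36 and 17 gated cells, and its top 10 genes held no macrophage marker but Alox15, a gene of large peritoneal macrophages, and F13a1. The 2 clusters are therefore compared between libraries by number.

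Chil3 was the most abundant of the 6 in the gated cells of both libraries, counting molecules at the 3' end, which does not scale with transcript length. In gated cells of KPCA.FSTKO, Chil3 made up 47.5% of the UMIs of the 6 genes, F13a1 26.0%, Mrc1 23.1%, Nos2 2.49%, Cd163 0.833% and Retnla 0.108%. In cluster 3 of KPCA.FSTKO_hFSTL3, Mrc1 (37.1%) and F13a1 (30.1%) came before Chil3 (26.3%), and Cd163 (3.21%) and Retnla (2.32%) before Nos2 (0.954%). Without the barcode with most of each gene, Retnla was at 15.5 CPM there, below Nos2 at 25.7 CPM. All 6 genes were more than 2-fold higher in gated cells than in all other cells of KPCA.FSTKO, against 14.5% of the 15764 genes with at least 50 UMIs. The ratio ran from 89.99 for F13a1 over 70.3 for Mrc1, 55.6 for Chil3, 43.9 for Cd163 and 34.3 for Nos2 to 14.1 for Retnla (10.0 to 20.1). In KPCA.FSTKO_hFSTL3 the same comparison put 4 of the 6 past 2-fold, against 2.57% of 14269 genes, with ratios from 2.19 for Chil3 to 3.23 for Mrc1, while Retnla (1.84, 1.65 to 2.07) and Nos2 (1.29, 1.06 to 1.56) were short of it. Within that library, gated cells of clusters 3 and 21 stood 5.64-fold (Retnla) to 21.3-fold (Mrc1) above all ungated cells. Without the barcode with most Retnla in each of these sets, Retnla was at 13.2 and 11.9 CPM, a ratio of 1.11 (0.756 to 1.57).

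**Figure D1:**
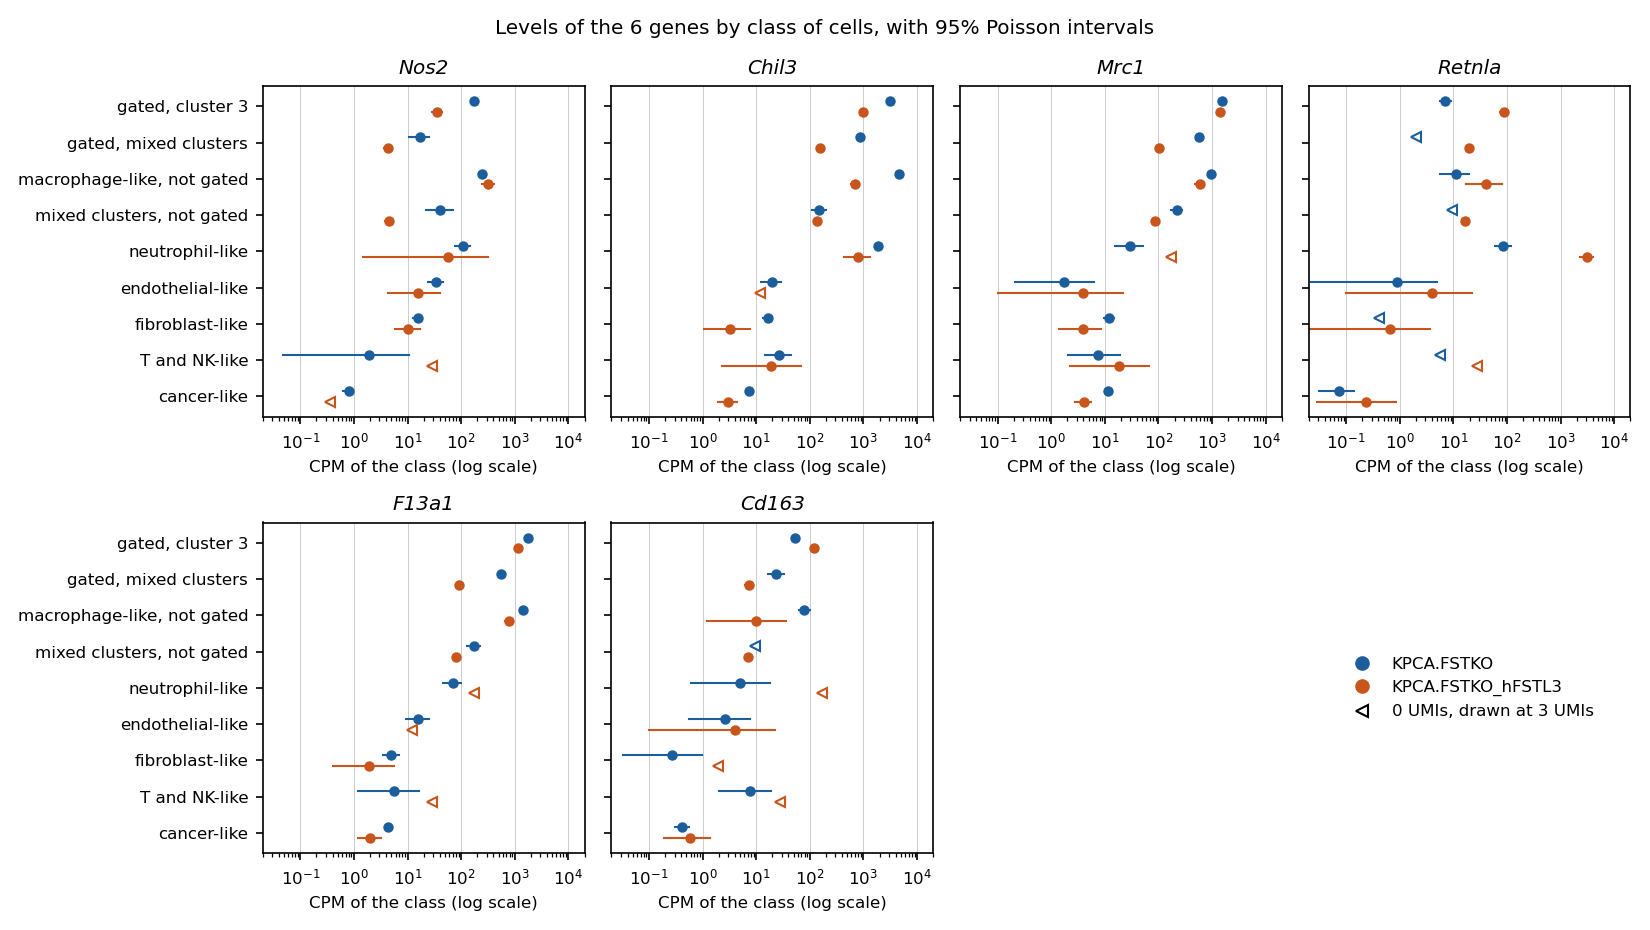
Level of each gene in CPM (log axis) in 9 classes of cells of each library, 1 point per class and library, with 95% Poisson intervals as lines (cut at the left edge of the axis) and open triangles for 0 UMIs. Of the 6 genes, 5 are highest among KPCA.FSTKO classes in gated cells of cluster 3 or in macrophage-like cells short of the gate, and Retnla is highest in neutrophil-like cells of both libraries. There Retnla was found in 5 of 149 cells of KPCA.FSTKO and 2 of 10 of KPCA.FSTKO_hFSTL3.

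Among gated cells Nos2 was lower in KPCA.FSTKO_hFSTL3 in both clusters. In cluster 3 Nos2 stood at 173 CPM (165 to 181) in KPCA.FSTKO and 35.8 CPM (28.4 to 44.7) in KPCA.FSTKO_hFSTL3, 4.83-fold higher in KPCA.FSTKO (3.85 to 6.13), and at 147 and 35.7 CPM in cluster 21, 4.13-fold higher (2.36 to 7.79). Of the 79 Nos2 UMIs behind the KPCA.FSTKO_hFSTL3 value in cluster 3, 23 came from a single barcode, and without the top barcode of each library the ratio was 6.49 (4.98 to 8.63). The KPCA.FSTKO_hFSTL3 value in cluster 21 rests on 14 UMIs in 4 cells. Ungated cells of clusters 3 and 21 together did not show this difference. Nos2 was there at 242 CPM (212 to 275) in 123 cells of KPCA.FSTKO and 324 CPM (249 to 413) in 21 cells of KPCA.FSTKO_hFSTL3, with intervals that overlap. Of the 64 UMIs behind the latter value, 35 lay in 1 barcode.

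The secreted proteins differed between the libraries in opposite directions. Chil3 was at 3172 CPM (3137 to 3207) in cluster 3 of KPCA.FSTKO and at 988 CPM (947 to 1030) in that of KPCA.FSTKO_hFSTL3, 3.21-fold higher in KPCA.FSTKO (3.07 to 3.35). In cluster 21 its ratio was larger, with 3709 and 339 CPM (10.9-fold, 9.18 to 13.1). Gated cells of both clusters thus had less Chil3 in KPCA.FSTKO_hFSTL3. The intervals of the 2 ratios did not overlap, but they do not cover the spread between cells. In cluster 21, 1 barcode held 406 of the 2892 Chil3 UMIs of KPCA.FSTKO, and 1 held 48 of the 133 of KPCA.FSTKO_hFSTL3. Without the top barcode of each library the ratios were 3.41 (3.26 to 3.57) in cluster 3 and 14.3 (11.5 to 17.9) in cluster 21. Retnla was at 7.12 CPM (72 UMIs) in cluster 3 of KPCA.FSTKO and at 87.1 CPM (192 UMIs) in cluster 3 of KPCA.FSTKO_hFSTL3, 12.2-fold higher in the latter (9.28 to 16.3). That value rests on 1 barcode, which held 158 of the 192 UMIs. Without the top barcode of each library Retnla was at 5.15 and 15.5 CPM, a ratio of 3.02 (1.90 to 4.73). Cluster 21 held 11 Retnla UMIs in KPCA.FSTKO and 0 in the other library.

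The receptors and F13a1 differed less. Mrc1 levels were 1539 CPM (1515 to 1563) and 1394 CPM (1345 to 1444) in cluster 3 and 1452 and 1393 CPM in cluster 21, with ratios of 1.10 (1.06 to 1.15) and 1.04 (0.940 to 1.16), the latter with an interval that holds 1. F13a1 levels were 1748 CPM (1722 to 1773) and 1131 CPM (1087 to 1177) in cluster 3, 1.54-fold higher in KPCA.FSTKO (1.48 to 1.61), but at 1676 and 2263 CPM in cluster 21, 1.35-fold higher in KPCA.FSTKO_hFSTL3 (1.24 to 1.47). Of the 887 F13a1 UMIs of cluster 21 in KPCA.FSTKO_hFSTL3, 278 came from a single barcode, and without the top barcode of each library the levels were 1554 and 1741 CPM, a ratio of 1.12 (1.01 to 1.24). Without the barcode with most Mrc1 in each library, Mrc1 in cluster 21 was at 1385 and 1117 CPM, 1.24-fold higher in KPCA.FSTKO (1.11 to 1.39). Cd163 levels were 54.1 CPM (49.7 to 58.9) and 121 CPM (107 to 136) in cluster 3, 2.23-fold higher in KPCA.FSTKO_hFSTL3 (1.92 to 2.59), or 2.08-fold (1.76 to 2.44) without the top barcode of each library. In cluster 21 it was at 62.8 CPM (49 UMIs) and 23.0 CPM (9 UMIs), 2.74-fold higher in KPCA.FSTKO (1.33 to 6.34), but the 49 UMIs lay in 7 cells, 39 of them in 1 barcode, and the 9 UMIs in 1 cell.

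In cluster 3, therefore, Retnla and Cd163 were past 2-fold higher and Nos2 and Chil3 past 2-fold lower in KPCA.FSTKO_hFSTL3, 4 of 6 genes, where 2.16% of 9795 genes with at least 50 UMIs were higher and 2.62% lower. The median log2 ratio was −0.38 over the 6 genes and 0.11 over all these genes. With clusters 3 and 21 pooled, Retnla was higher, Nos2 and Chil3 were lower and Cd163 was short of the size at 1.93-fold, against 2.75% higher and 2.42% lower of 10054 genes. Over all gated cells, mixed clusters included, 5 of the 6 were lower in KPCA.FSTKO_hFSTL3 and Retnla was 3.75-fold higher (2.98 to 4.76), against 17.9% lower and 18.6% higher of 13248 genes. Nos2 was then at 149 and 7.01 CPM (21.3-fold), Chil3 at 2846 and 220 CPM (12.9-fold), Mrc1 at 1381 and 212 CPM (6.52-fold), F13a1 at 1558 and 193 CPM (8.05-fold) and Cd163 at 49.9 and 15.5 CPM (3.21-fold). The direction of Cd163 is thus opposite over all gated cells and in cluster 3, and the ratios of Nos2, Chil3, Mrc1 and F13a1 lie nearer to 1 in cluster 3, where the sums of the macrophage markers are closer between the libraries.

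**Figure D2:**
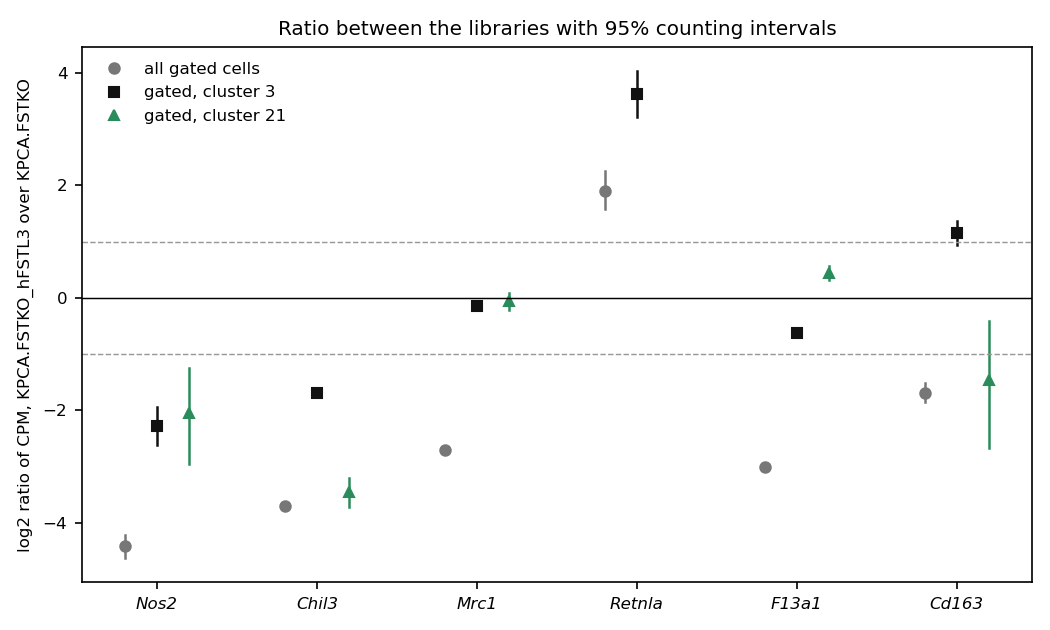
Log2 ratio of the level (CPM) in KPCA.FSTKO_hFSTL3 over KPCA.FSTKO for each of the 6 genes, over all gated cells (circles), gated cells of cluster 3 (squares) and of cluster 21 (triangles), with 95% counting intervals as lines and the 2-fold size dashed. Nos2 and Chil3 lie under the lower dashed line in all 3 sets, Retnla lies above the upper one in both sets drawn (it had 0 UMIs in cluster 21 of KPCA.FSTKO_hFSTL3), and Cd163 changes side.

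Detection cell by cell ran from Mrc1, found in most cells of cluster 3, to genes held by few. Each cell was thinned to 3000 UMIs for this, which left out 5 of 726 cluster 3 cells of KPCA.FSTKO and 1 of 117 of KPCA.FSTKO_hFSTL3, and the shares before thinning follow in brackets, KPCA.FSTKO first throughout. Mrc1 was found in 87.7% and 85.3% of cells (97.8% and 98.3% before thinning). F13a1 was found in 70.2% and 66.4% (80.2% and 73.5%) and Chil3 in 53.8% and 37.1% (66.5% and 47.9%). Nos2 was found in 20.1% (17.2 to 23.2) and 3.45% (0.947 to 8.59), or 31.1% and 13.7% before thinning. Cd163 was found in 6.66% (4.95 to 8.73) and 12.9% (7.42 to 20.4), or 14.3% and 27.4%, and Retnla in 1.25% and 4.31%, or 2.20% and 5.98%. For comparison, cancer-like cells of KPCA.FSTKO (median 27666 UMIs) had thinned shares of 3.98% for Mrc1, 2.60% for Chil3, 2.27% for F13a1, 0.332% for Cd163, 0.166% for Nos2 and 0.0277% for Retnla, all below those of cluster 3. In gated mixed cells of KPCA.FSTKO_hFSTL3 (median 23744 UMIs) the thinned shares of Chil3 (35.8%), Retnla (5.19%) and Nos2 (1.26%) lay within the intervals of cluster 3 of that library, so at this depth presence alone does not set those macrophages apart from the mixed clusters for these 3 genes.

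The genes were spread very differently over the cells of cluster 3. The median thinned cell held 3 Mrc1 UMIs in cluster 3 of both libraries. Chil3 had a median of 1 UMI and a 90th percentile of 28 in KPCA.FSTKO, and 0 and 10 in KPCA.FSTKO_hFSTL3. Before thinning, the top 10% of cells in cluster 3 of KPCA.FSTKO held 37.8% of all Mrc1 UMIs, 41.2% of F13a1, 58.2% of Chil3, 73.0% of Nos2, 94.3% of Cd163 and 100% of Retnla UMIs. By this measure, into which the depth of each cell also enters, Mrc1 was the most evenly held of the 6, while Cd163 and Retnla sat in few cells. The 100% of Retnla was fixed in advance, since 2.20% of these cells held any Retnla UMI.

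**Figure D3:**
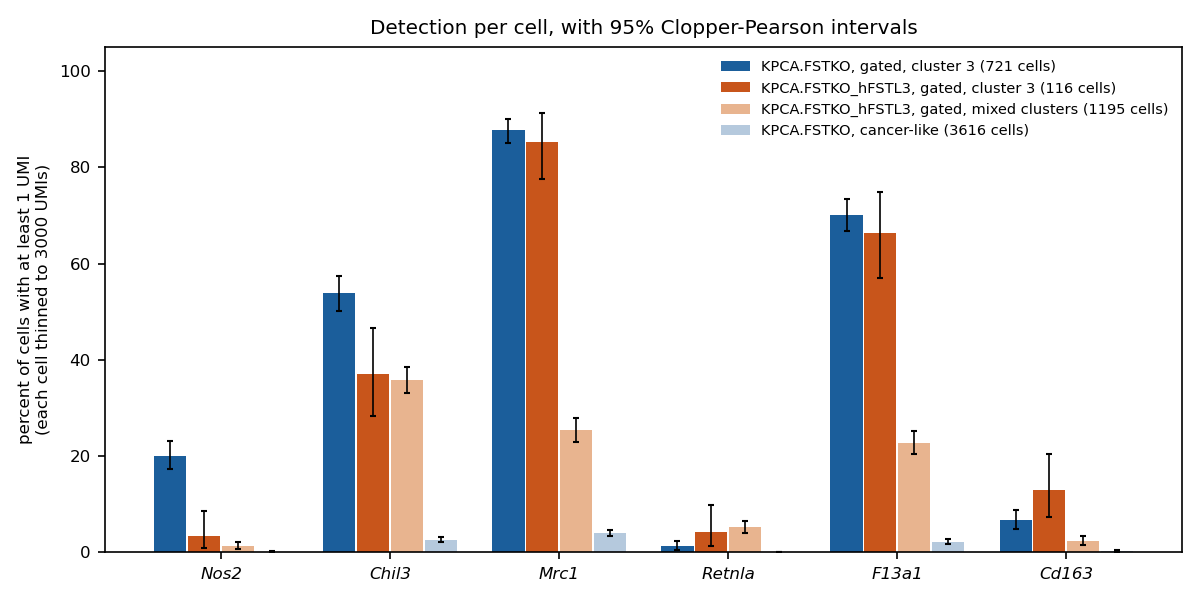
Percent of cells with at least 1 UMI of each gene after each cell was thinned to 3000 UMIs, in gated cells of cluster 3 of both libraries, gated mixed cells of KPCA.FSTKO_hFSTL3 and cancer-like cells of KPCA.FSTKO, with 95% Clopper-Pearson intervals as bars. Mrc1 is found in 85.3% or more of cluster 3 cells of both libraries, and Nos2 in 20.1% and 3.45%.

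Genes of opposite textbook programmes were found in the same cells. Of the 145 cells with a Nos2 UMI in cluster 3 of KPCA.FSTKO, 90 carried Chil3 (62.1%, 53.6 to 70.0), against 51.7% of the others (47.6 to 55.9), where the product of the shares of the 2 genes alone gives 78.0 cells. Mrc1 was found in 115 of the 145 (79.3%, 71.8 to 85.6), against 89.8% of the others (87.0 to 92.1). Cells with Nos2 thus carried Mrc1 in a smaller share than cells without it, with intervals that do not overlap, while those for Chil3 do. Of the 4 Nos2-positive cells of cluster 3 of KPCA.FSTKO_hFSTL3 all carried Mrc1 and 2 carried Chil3. Across the 721 cells of cluster 3 of KPCA.FSTKO the thinned counts of Nos2 had a Spearman correlation of 0.07 with Chil3 and −0.14 with Mrc1, and across 116 cells of KPCA.FSTKO_hFSTL3 these were 0.04 and −0.14, as a description of cells that share a library and, after thinning, a depth. Chil3 and Mrc1 counts were correlated at −0.19 and −0.21. No cell carried all 6 genes. In KPCA.FSTKO 39.1% of cluster 3 cells carried 2 of the 6, 37.0% carried 3, 8.88% carried 4 and 0.277% carried 5, and in KPCA.FSTKO_hFSTL3 58 of 116 cells carried 2, 24.1% carried 3 and 5.17% carried 4. Chil3, Mrc1 and F13a1 were found together in 232 of 721 cells (32.2%) and in 18 of 116 cells (15.5%) of cluster 3, and in 31.1% and 3.60% of all gated cells.

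Mrc1, F13a1 and Cd163 tended to be found together in cluster 3 of KPCA.FSTKO, and the shares in KPCA.FSTKO_hFSTL3 lay the same way with intervals that overlap. F13a1 was present in 72.8% of Mrc1-positive and 51.7% of Mrc1-negative cells of cluster 3 in KPCA.FSTKO and in 69.7% (59.6 to 78.5) and 47.1% (23.0 to 72.2) in KPCA.FSTKO_hFSTL3. All 48 Cd163-positive cells of KPCA.FSTKO carried Mrc1 and 45 (93.8%) carried F13a1, against 86.8% and 68.5% of the others, and of the 15 Cd163-positive cells of KPCA.FSTKO_hFSTL3 all carried Mrc1 (78.2% to 100%) and 14 carried F13a1 (68.1% to 99.8%), against 83.2% (74.4 to 89.9) and 62.4% (52.2 to 71.8) of the others. Chil3 was found in a smaller share of the same cells. Chil3 was found in 17 of 48 Cd163-positive cells of KPCA.FSTKO (35.4%, 22.2 to 50.5), against 55.1% of the others (51.3 to 58.9), and in 1 of 15 in KPCA.FSTKO_hFSTL3 (6.67%, 0.169 to 31.9), against 41.6% (31.9 to 51.8). Nos2 was found in 4 of the 48 (8.33%, 2.32 to 19.98), against 20.95% of the others (17.9 to 24.2), with intervals that overlap, and in 0 of the 15 (up to 21.8%), against 3.96% of the others. Cd163 and Chil3 counts were correlated at −0.12 in KPCA.FSTKO and −0.24 in KPCA.FSTKO_hFSTL3.

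**Figure D4:**
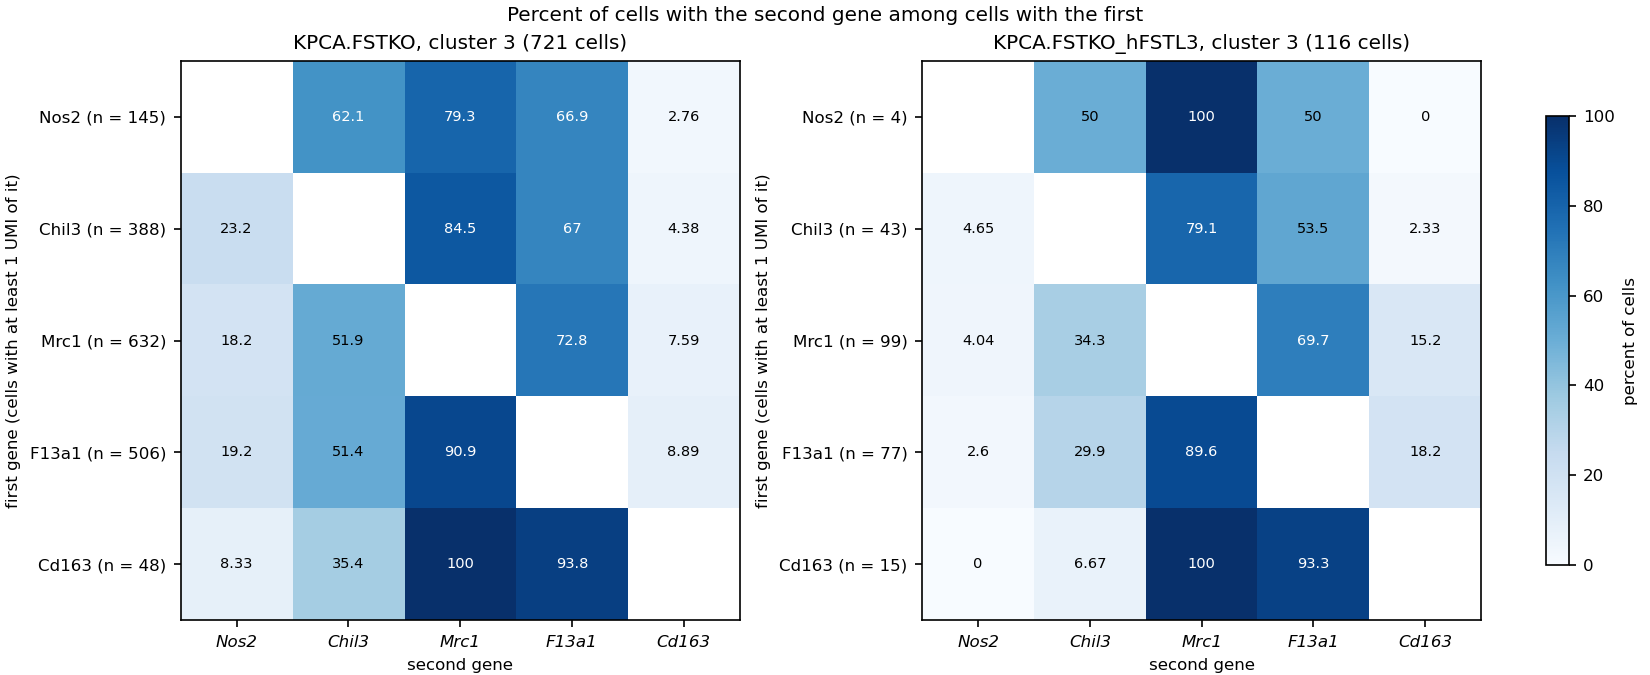
Percent of gated cluster 3 cells with the gene of the column among cells with the gene of the row, each cell thinned to 3000 UMIs, for KPCA.FSTKO (721 cells) and KPCA.FSTKO_hFSTL3 (116 cells), with the number of cells carrying the row's gene in brackets. The Mrc1 column is at 79.1% or more in all rows of both libraries, and in the Chil3 column the Cd163 row is the lowest of those drawn in both libraries.

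The genes whose counts ran most like each member over the 818 gated cells of KPCA.FSTKO were ranked by Spearman correlation among 4109 others (4110 for Cd163), and the values over cluster 3 of KPCA.FSTKO and of KPCA.FSTKO_hFSTL3 (721 and 116 cells) follow in brackets. For Nos2 they were Egln3, an oxygen-sensing prolyl hydroxylase, at 0.30 (0.34 and 0.22), the glycolytic enzyme Gapdh at 0.29 (0.31 and 0.19) and the metallothionein Mt2 at 0.29 (0.29 and 0.10). For Chil3 they were Prtn3, proteinase 3, at 0.33 (0.33 and 0.40), Ecm1 at 0.33 (0.34 and 0.30) and thrombospondin 1, Thbs1, at 0.32 (0.31 and 0.36). For Mrc1 they were F13a1 at 0.38 (0.37 and 0.55), C1qa at 0.34 (0.31 and 0.33) and the lysosomal protease Lgmn at 0.33 (0.30 and 0.39), and for F13a1 they were the platelet factor Pf4 at 0.43 (0.42 and 0.44), Mrc1 at 0.38 (0.37 and 0.55) and the calcium channel Cacna1d at 0.31 (0.29 and 0.15). For Cd163 they were the ficolin Fcna at 0.23 (0.23 and 0.48), the selenoprotein Selenop at 0.23 (0.22 and 0.43) and the chemokine Ccl8 at 0.22 (0.22 and 0.48). C1qa was part of the gate, all these cells share 1 library per genotype, and counts this sparse keep correlations low.

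Outside the gate lay 13.6% of the UMIs of the 6 genes in KPCA.FSTKO and 32.1% in KPCA.FSTKO_hFSTL3. In KPCA.FSTKO the share was 10.0% for F13a1, 12.5% for Mrc1, 15.3% for Chil3, 18.6% for Cd163, 22.6% for Nos2 and 41.5% for Retnla. Over the 6 genes summed, the largest source was 123 cells of clusters 3 and 21 that missed the gate, with Chil3 at 4624 CPM, F13a1 at 1428 CPM, Mrc1 at 948 CPM, Nos2 at 242 CPM and Cd163 at 79.7 CPM. For Mrc1 cancer-like cells held more of the UMIs outside the gate, 1256 against 940, and for Retnla neutrophil-like cells did, 34 against 11. The barcode with the most Chil3 anywhere outside the gate, 641 UMIs of 16942, was among the 123 cells of clusters 3 and 21 and had no C1q UMI. In KPCA.FSTKO_hFSTL3 the largest source was the 2299 ungated cells of mixed clusters, which held 9045 of the 9782 UMIs of the 6 genes outside the gate.

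Neutrophil-like cells carried a different mix. In 149 such cells of KPCA.FSTKO (median 2543 UMIs) Chil3 was at 1835 CPM (1705 to 1973) and made up 86.1% of the UMIs of the 6 genes. F13a1 was at 69.8 CPM and Mrc1 at 29.9 CPM, a small part of their level in macrophages, so the mix of genes was not that of cluster 3. Nos2 was at 107 CPM (77.6 to 144), below the 173 CPM of cluster 3, and Retnla at 84.8 CPM (58.7 to 118), above it. Chil3 was found in 86 of the 149 cells (57.7%), against 18.0% of the far deeper cancer-like cells (median 27666 UMIs), and 43 of them held at least 5 UMIs, whereas 15 of the 34 Retnla UMIs came from 1 barcode. The 10 neutrophil-like cells of KPCA.FSTKO_hFSTL3 (median 825 UMIs) had Chil3 at 805 CPM (440 to 1351) and Retnla at 3048 CPM, of which 46 of 53 UMIs lay in 1 barcode of 716 UMIs. Retnla was found in 5 of the 149 and 2 of the 10 cells. In each library the barcode with most Retnla had no UMI of the neutrophil markers Csf3r and S100a9 and none of Ptprc.

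In endothelial-like and fibroblast-like cells Nos2 stood further above its level in cancer-like cells than Chil3, Mrc1 and F13a1 did. In KPCA.FSTKO it was at 33.7 CPM (23.8 to 46.2) in 130 endothelial-like cells, at 15.6 CPM (12.9 to 18.7) in 438 fibroblast-like cells, at 1.89 CPM (1 UMI) in T and NK-like cells and at 0.795 CPM (0.637 to 0.979) in 3817 cancer-like cells. It was 42.4-fold higher in endothelial-like than in cancer-like cells (28.2 to 62.7) and 19.6-fold higher in fibroblast-like cells (14.7 to 26.1), where Chil3 was 2.67-fold and 2.25-fold higher. F13a1 was 3.63-fold and 1.13-fold higher, and Mrc1 was at 0.156 and 1.06 times its level in cancer-like cells. Retnla and Cd163 had too few UMIs for these comparisons. Nos2 made up 45.2% and 31.5% of the UMIs of the 6 genes in these classes, against 2.49% in gated macrophages. A Nos2 UMI was found in 23 of 130 endothelial-like cells (17.7%, median 3076 UMIs) and in 19 of 438 fibroblast-like cells (4.34%, median 16130.5 UMIs), 7 of the latter with at least 5, against 0.812% of cancer-like cells (median 27666 UMIs). The fibroblast-like barcode with most held 39 Nos2 UMIs beside 458 of the collagen gene Col3a1, 1 of C1qa and none of Ptprc. In KPCA.FSTKO_hFSTL3 the levels in the same classes were 16.0 CPM (4 UMIs) and 10.3 CPM (16 UMIs), with none in 173 cancer-like cells, where 3 counts would be a level of 0.354 CPM.

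In cancer-like cells of KPCA.FSTKO the 6 genes were low, and their mix differed from that of the macrophages. Mrc1 was at 11.3 CPM, Chil3 at 7.31 CPM, F13a1 at 4.40 CPM, Cd163 at 0.415 CPM and Retnla at 0.0722 CPM. Mrc1 made up 46.6% of their UMIs of the 6 genes, Chil3 30.1% and F13a1 18.1%, so that Mrc1 took a larger part than in gated macrophages (23.1%). At least 5 Mrc1 UMIs were found in 46 cancer-like barcodes and at least 5 Chil3 UMIs in 2. The doublet caller marked 6 of the 3817 cancer-like cells, and the part of doublets and free RNA in these UMIs was not tested.

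The mixed clusters of KPCA.FSTKO_hFSTL3 carried all 6 genes at levels that were similar inside and outside the gate. Chil3 was at 155 CPM in their gated and 137 CPM in their ungated cells, Mrc1 at 101 and 88.2 CPM, F13a1 at 90.9 and 81.3 CPM, Retnla at 19.7 and 16.4 CPM, Cd163 at 7.21 and 7.14 CPM and Nos2 at 4.39 and 4.59 CPM. All but Retnla lay well below cluster 3 of the same library, where Retnla without the top barcode was at 15.5 CPM. The gate therefore hardly separated the mixed cells by these genes. Their mix was also nearly the same in both, with Chil3 at 41.0% and 40.9% of the UMIs of the 6 genes and Mrc1 at 26.7% and 26.4%, whereas in cluster 3 of the same library Chil3 took 26.3% and Mrc1 37.1%. Retnla was found, before thinning, in 396 of 1205 gated mixed cells (32.9%) with no more than 9 UMIs in any, against 7 of 117 cells of cluster 3 (5.98%). Thinned to 3000 UMIs it was found in 5.19% of gated mixed cells (4.00 to 6.60) and in 0 of 171 cancer-like cells of that library (up to 2.13%). The mixed clusters are pooled here and were not alike in Retnla. It was among the top 10 genes of mixed cluster 4, in which C1qa, C1qb and Aif1 were raised, and not among those of mixed clusters 0, 5 and 10. Cluster 4 held 748 cells of KPCA.FSTKO_hFSTL3 and 49 of KPCA.FSTKO. Whether the UMIs of the 6 genes in mixed clusters come from free RNA, from doublets or from the cells themselves was not tested.

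The close relatives of the 6 genes were low in gated cells of KPCA.FSTKO, where Mrc2 was at 1.86 CPM and Nos3 at 1.48 CPM, Cd163l1, Chil4, Nos1 and Retnlg had 4, 3, 1 and 1 UMIs, and Chil1, Retnlb and F13b had none, where 3 counts would be a level of 0.233 CPM. In gated cells of KPCA.FSTKO_hFSTL3, mixed clusters included, Mrc2 was at 10.9 CPM and Retnlg at 7.98 CPM, against 1.93 and 0 CPM in clusters 3 and 21 of that library. In neutrophil-like cells of KPCA.FSTKO, Retnlg was at 3316 CPM and Chil1 at 54.9 CPM.

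Further lists place the 6 genes among the rest of their programmes in cluster 3, with the level in KPCA.FSTKO given first. The list of 26 other genes of alternative activation also holds Lyve1 and Alox15, named above for resident and for large peritoneal macrophages. Of the 26, 22 had at least 50 UMIs, 7 were past 2-fold higher in KPCA.FSTKO_hFSTL3 and 1 was lower, against 2.16% higher and 2.62% lower of all genes with enough UMIs, with a median log2 ratio of 0.51 against 0.11 over all genes with enough UMIs. The largest were the eosinophil chemokine Ccl24 at 68.7 and 235 CPM (3.43-fold, 3.05 to 3.85), the growth factor Igf1 at 25.6 and 83.5 CPM (3.26-fold, 2.68 to 3.95) and the hyaluronan receptor Lyve1 at 45.2 and 142 CPM (3.15-fold, 2.72 to 3.64), followed by the lectin Mgl2 (3.01-fold), the cytokine Il10 (2.81-fold, 1.72 to 4.51), the chemokine Ccl17 (2.03-fold) and the lectin Clec10a (2.00-fold, 1.58 to 2.53). The lower one was the ribonuclease Ear2, at 44.8 and 19.5 CPM (2.30-fold, 1.68 to 3.22). Chil3 and the genes of this list thus did not share 1 direction, since Chil3 was lower where these 7 were higher. The receptor Il4ra and the factor Stat6, through which interleukin 4 signals, were at 176 and 144 CPM and at 65.5 and 54.0 CPM, with no 2-fold difference. Mgl2, Il10, Ccl17, Clec10a, Il4ra, Stat6, Il1b, Cxcl9, Slc7a2 and Ass1 were named for cluster 3 after their values were seen.

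Of 26 genes of classical activation, 25 were in the reference and 21 had enough UMIs, of which none was past 2-fold higher and 1 lower, the cytokine Tnf at 14.0 and 6.35 CPM (2.20-fold, 1.27 to 4.12), with a median log2 ratio of −0.18. The cytokine Il1b stood at 117 and 219 CPM (1.88-fold higher, 1.69 to 2.09) and the interferon-induced chemokine Cxcl9 at 102 and 80.3 CPM, both short of 2-fold. Of these classical genes only Tnf was, like Nos2, past 2-fold lower, and the median of the list lay below that of all genes. Of 18 genes of arginine metabolism 15 had enough UMIs and none was past the size, with a median of 0.01, against 0.11 over all genes. Slc7a2, the transporter that brings arginine into macrophages, was at 829 and 943 CPM (1.14-fold, 1.08 to 1.19), and Ass1, which rebuilds arginine from citrulline, was at 12.9 and 20.9 CPM (1.62-fold, 1.13 to 2.29). Over all gated cells the same lists were lower in KPCA.FSTKO_hFSTL3 as the macrophage markers were, with 14 of 22 alternative genes (the lowest Ear2, Vsig4 and Irf4) and 14 of 21 classical genes (Tnf, Cxcl9 and Cd38) past 2-fold lower and none higher, against 17.9% lower and 18.6% higher of all genes. For arginine metabolism 5 of 16 were higher, led by Ddah1 (3.91-fold), Ddah2 (3.85-fold) and Nos3 (2.39-fold), and 4 lower, among them Slc7a2 (5.14-fold) and Slc7a8 (3.02-fold), against the same shares of all genes.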

How the data were processed

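Cells of 2 pooled tumor samples were profiled with 10x 3' chemistry. The authors deposited raw UMI counts per gene and barcode for barcodes called as cells. Their methods and the processing notes name Cell Ranger 3.1.0, whereas the matrix header names 7.2.0, with an mm10 (GRCm38) reference. Human FSTL3 was not analysed here. A further gene of the set and some other labelled items are not reported here. Barcodes with a mitochondrial share under 20% and 201 to 7999 genes were kept, which leaves 6777 and 4041 of 7582 and 4244. The cell numbers in the methods equal the barcodes before this filter.

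UMIs were summed per class of cells. A gene was called past the size with at least 50 UMIs over both sums and a CPM ratio of at least 2. With 1 library per genotype no test was run and cells were not treated as replicates, and UMIs lost or copied before counting are outside the intervals. Cells were clustered in Seurat 5.3.0 (R 4.3.3) on 1953 variable genes after leaving out the genes of the set and the listed ones, with 10 components and resolution 0.8. A cluster was named where at least 3 fixed markers were raised and its leading genes did not go against the name, and the rule for mixed clusters was applied to the top 10 genes. This naming rule was written after the clusters were seen. Cells were not removed as doublets. Scrublet (scanpy 1.11.5) marked 90 cells (1.33%) of KPCA.FSTKO and 1 cell (0.0247%) of KPCA.FSTKO_hFSTL3. It was treated as not having worked in the latter, which was not tested. Thinning drew 3000 UMIs per cell without replacement. The sums, calls and thinning were tested on simulated data. Most-like genes are the 3 highest Spearman correlations among genes found in at least 10% of gated cells, for members found in at least 5%, and named list genes are the 3 largest and 3 smallest ratios past the size, with the exceptions given. The members and lists were chosen with earlier results of these data known. Alternatives covered the gate, the restriction to purer cells, filters, doublets, scaling (TMM, edgeR 4.0.16), depth and thresholds.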

Additional observations from a re-analysis of the deposited data

How the results depend on the processing

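Most values over gated cells depended on which gated cells of KPCA.FSTKO_hFSTL3 were counted. Of the 6 genes past 2-fold between the libraries (1 higher, 5 lower), 3 were left (2 lower) with keratin and collagen UMIs under 0.2%, 3 (2 lower) outside mixed clusters, 3 (2 lower) in clusters 3 and 21, and 4 (2 higher, 2 lower) in cluster 3, a setting chosen after seeing the data. The log2 ratio of Cd163, −1.68 over all gated cells, was reversed in these 4 settings, at 0.85, 0.89, 0.95 and 1.16. The genes past 2-fold numbered 6, 7, 7 and 8 in place of 14 for alternative activation, where all 14 were lower but 5, 5, 5 and 7 of these were higher, 2, 2, 1 and 1 in place of 14 for classical activation, and 0, 0, 0 and 0 in place of 9 for arginine metabolism. The construction of these settings removes 1205 mixed cells or most of them. Among all genes with enough UMIs the share past 2-fold fell as well. Over all gated cells 18.6% were higher and 17.9% lower. In clusters 3 and 21 these shares were 2.75% and 2.42%, and in cluster 3 they were 2.16% and 2.62%. Over 16 alternatives (15 for Retnla) the log2 ratio ran from −5.20 to −2.16 for Nos2, −3.81 to −1.68 for Chil3, −3.26 to −0.14 for Mrc1, −3.77 to −0.42 for F13a1 and 1.61 to 3.61 for Retnla, each with 1 direction. Those with another threshold on UMIs or on the fold leave the ratio unchanged by construction and bear on the calls only. Without the 5% of cells with most UMIs no Retnla UMI was left in KPCA.FSTKO, so that setting gave no ratio. TMM scaling moved all ratios by 0.094 (log2) and the share of calls that were higher from 51.0% to 56.2%.

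Cells with Chil3, Mrc1 and F13a1 were 31.1% of gated KPCA.FSTKO cells, against 16.6% thinned to 1000 UMIs, 50.9% not thinned, 34.5% with Adgre1 and Csf1r in the gate and 19.4% with at least 2 UMIs of each gene. In KPCA.FSTKO_hFSTL3 they were 3.60%, against 0.817%, 62.95%, 5.42% and 1.12% in the same order, 18.0% with low keratin and collagen, 16.4% outside mixed clusters and 16.5% in clusters 3 and 21. Without thinning the order of the libraries was thus reversed, and the gated cells of KPCA.FSTKO_hFSTL3 were deeper. The share of the 6 genes' UMIs outside the gate, 13.6% in KPCA.FSTKO, was 12.4% and 15.8% with gates of 3 and 10 C1q UMIs, 31.3% with Adgre1 and Csf1r and 14.5% with no mitochondrial filter. In KPCA.FSTKO_hFSTL3, 32.1% became 33.5% with 10 C1q UMIs and 58.6% with Adgre1 and Csf1r. The number of genes past 2-fold higher inside the gate than outside was 6 in KPCA.FSTKO under every alternative run and 4 to 6 in KPCA.FSTKO_hFSTL3, and among classes of at least 50 cells 5 and 6 genes were highest in macrophage-like clusters at each resolution tried, of which Retnla in KPCA.FSTKO_hFSTL3 (71.6 CPM) rests on 1 barcode, without which it was at 15.1 CPM, below mixed clusters (17.9 CPM). No paired analysis was possible because each genotype had 1 library.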
